A study of Neurospora crassa with 30 samples.

Results

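The comparison described here set Neurospora crassa mycelia exposed to maltose, a disaccharide of 2 glucose units in an alpha linkage, against mycelia exposed to fructose, a hexose. The samples were taken by their labelled carbon source, which gave 6 of the 30 RNA-seq samples in the series, 3 on maltose and 3 on fructose. All 30 came from the wild type strain FGSC 2489, and the other 24 samples covered 8 further carbon sources with 3 samples each. Each culture was grown for 16 hrs in Vogel's minimal medium with 2% sucrose, washed free of sugar, and then held for 4 hrs with the tested carbon source, which was 2 mM for maltose and for fructose. The comparison asks how the transcriptome on an alpha-glucoside differs from that on a monosaccharide at the same molar concentration. Because maltose is a dimer, the maltose medium also held more hexose units, and the kind of sugar and the amount of hexose cannot be told apart in this design. The sugar left in the medium at harvest was not measured in the data used here.

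Starch and maltose are used by filamentous fungi through secreted glucoamylases, alpha-amylases and alpha-glucosidases, which release glucose for uptake by hexose transporters. In N. crassa the zinc cluster transcription factor COL-26 is needed for growth on maltose and starch, and its relatives in Aspergillus are the AmyR regulators. CRE-1 is the zinc finger repressor of carbon catabolite repression, which holds down genes for less favoured carbon sources when a favoured sugar is present. Fungi short of sugar make hexose phosphates by gluconeogenesis, fed in part by the glyoxylate cycle, and release ammonium from glutamate.

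Reads assigned to genes numbered 13878553 to 17835881 per maltose sample and 16079818 to 21925749 per fructose sample, and 8896 to 8973 genes in the maltose samples and 8973 to 9027 genes in the fructose samples had at least 1 read. Expression levels are given as CPM, read counts normalised to a library total of 1000000, which are not divided by gene length and are compared only between samples. Differences are given as log2 fold changes of maltose over fructose with their standard error (SE). A gene was called when its expression level differed by more than 2-fold at an adjusted p under 0.01 in edgeR's quasi-likelihood test, with p-values adjusted by Benjamini-Hochberg across the 8501 genes tested. Since the RNA came from whole mycelia, fewer cells of a type and less RNA per cell cannot be told apart. The p-values measure the spread between cultures on the same carbon source, pooled over all 10 carbon sources and not from these 6 samples alone. Reads mapped to several places made up 1.51% to 3.23% of the reads in the maltose samples and 1.04% to 1.12% in the fructose samples, and their part in the differences was not tested.

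Of 54 ribosome biogenesis and rRNA processing genes, 49 were called higher in maltose and 0 lower. Among 11 genes for starch- and maltose-cleaving enzymes, 4 were called higher and 1 lower, and among 16 hexose and monosaccharide transporter genes, 4 were called higher and 3 lower. The ammonium-fixing glutamate dehydrogenase gene am was called higher, and the ammonium-releasing gene gdh-1 and 4 of 5 genes for the glyoxylate cycle and gluconeogenesis were called lower. Of the 8501 genes tested, 1613 (19.0%) were called, 829 (9.75%) higher in maltose and 784 (9.22%) lower in maltose, and the median log2 fold change over all genes was 0.0037. In 1604 of the called genes the 3 maltose samples did not overlap with the 3 fructose samples, as was also the case for 60.1% of all genes tested (29.9% with maltose above and 30.2% with maltose below). Under a stricter test against a fold change of 2, in place of the 2-fold limit on the estimate, 693 genes were called, 414 higher and 279 lower.

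**Figure D1:**
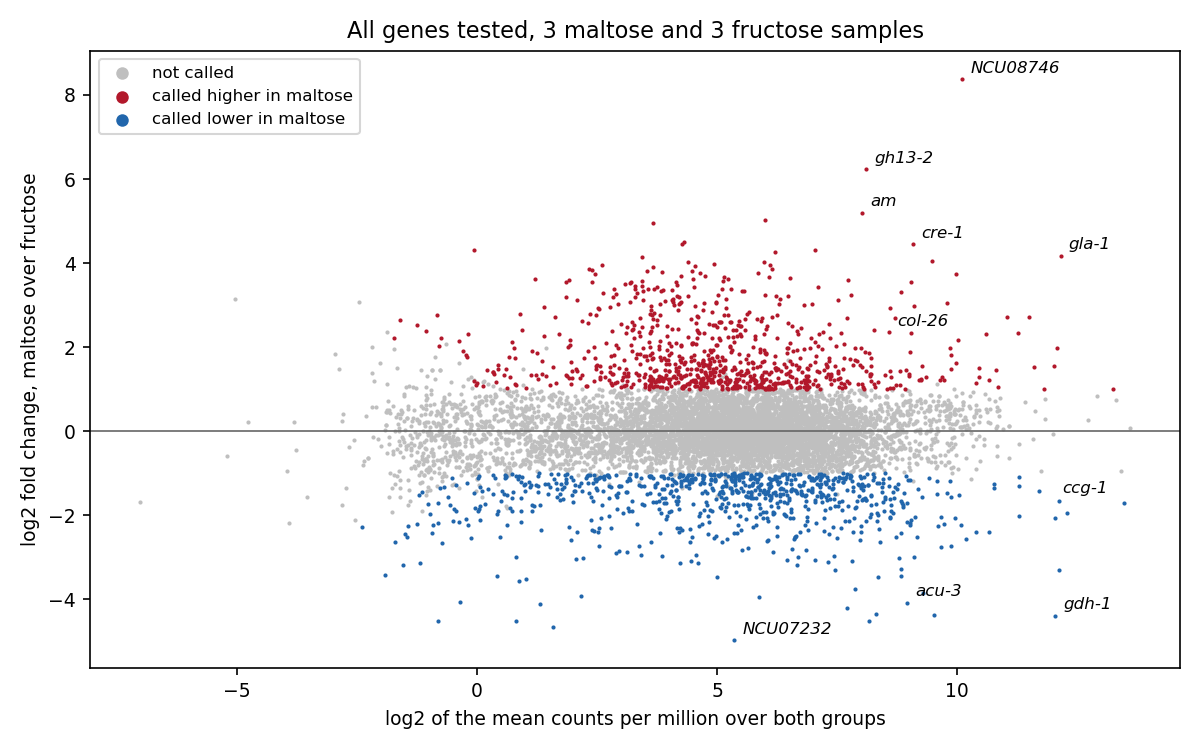
Log2 fold change, maltose over fructose (vertical axis), against the log2 mean CPM of both groups (horizontal axis) for the genes tested, with red points called higher in maltose and blue points called lower in maltose. The 829 red and 784 blue points spread over the whole range of expression levels, and NCU08746 stands highest at 8.39; 1 gene without reads in these 6 samples is not drawn.

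Genes for starch- and maltose-cleaving enzymes took 1.99%, 1.23% and 1.39% of the gene counts in the maltose samples, against 0.316%, 0.356% and 0.341% in the fructose samples. The shares did not overlap and averaged 1.53 ± 0.40% on maltose and 0.338 ± 0.020% on fructose (SD, n = 3 each), a difference of 1.20 percentage points with a two-sided exact permutation p of 0.1, the smallest that 3 against 3 samples allow. Much of the difference lay in the glucoamylase gene gla-1. It averaged 8617 of 14903 summed CPM on maltose and 476 of 3294 summed CPM on fructose. Of the 11 listed genes, 4 were called higher in maltose, 1 was called lower and 6 were not called, with a median log2 fold change of 0.52. This count and those of the lists that follow stand against the 9.75% higher and 9.22% lower of all genes tested.

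The largest fold change among the genes tested was in NCU08746 (chromosome II, 3873518 to 3875060 on the NC12 assembly), which carries a starch-binding domain and encodes a lytic polysaccharide monooxygenase that cleaves starch by oxidation. NCU08746 had 2999, 1834 and 1713 CPM in the maltose samples, against 8.76, 5.97 and 4.72 CPM in the fructose samples, a log2 fold change of 8.39 (SE 0.32, adjusted p = 2.21e-15). The fitted fold change was 334-fold. The alpha-amylase gene gh13-2 (NCU09805, chromosome I, 4104873 to 4108609) had 699, 495 and 437 CPM on maltose, against 6.77, 7.58 and 7.16 CPM on fructose. Its log2 fold change was 6.24 (SE 0.22, adjusted p = 4.07e-16), and the fructose samples lay within 1 CPM of each other.

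Glucoamylase, which splits glucose from the ends of starch chains, is encoded by gla-1 (NCU01517, chromosome II, 3214128 to 3217500). This gene had the largest gain in CPM of all called genes, with 11698, 6458 and 7696 CPM on maltose, against 582, 419.6 and 428 CPM on fructose (log2 fold change 4.18, SE 0.27, adjusted p = 7.85e-12). The alpha-glucosidase gene gh31-3 (NCU04674) had 1903, 1143 and 1693 CPM on maltose, against 197, 170.1 and 204 CPM on fructose (3.05, SE 0.17, adjusted p = 4.61e-13). Neither gene's groups overlapped, and in the mean over samples all 4 called genes were higher on maltose than on any of the other 9 carbon sources. Trehalose and then sorbose came next for all 4, with means of 6835 and 4334 CPM in gla-1 and 707 and 610 CPM in NCU08746. The highest of the other 24 samples reached 7353 CPM in gla-1, above its lowest maltose sample. For NCU08746, gh13-2 and gh31-3 the highest of these samples stayed below every maltose sample.

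Another alpha-glucosidase gene of the same family, gh31-1 (NCU09281, chromosome VII, 93779 to 97154), went the other way. It had 54.7, 44.6 and 63.4 CPM in the maltose samples, against 420.5, 759.8 and 620.1 CPM in the fructose samples, and fell by 3.47 on the log2 scale (SE 0.28, adjusted p = 3.21e-10). Fructose gave its highest mean of the 10 carbon sources. The alpha-amylase gene gh13-1 (NCU08131) averaged 668 ± 72.1 CPM on maltose and 1113 ± 68.8 CPM on fructose (SD, n = 3 each), a log2 fold change of -0.74 that did not reach 2-fold. The alpha-glucosidase gene gla-2, with 1167 ± 174 CPM on maltose and 815 ± 64.6 CPM on fructose, had a value of 0.52 and was not called. The other 4 members, gh13-3, gh13-4, gh13-5 and gh13-6, ranged from -0.71 to 0.88 and were not called, although gh13-5 passed with 1.01 when maltose replicate 3 was left out.

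**Figure D2:**
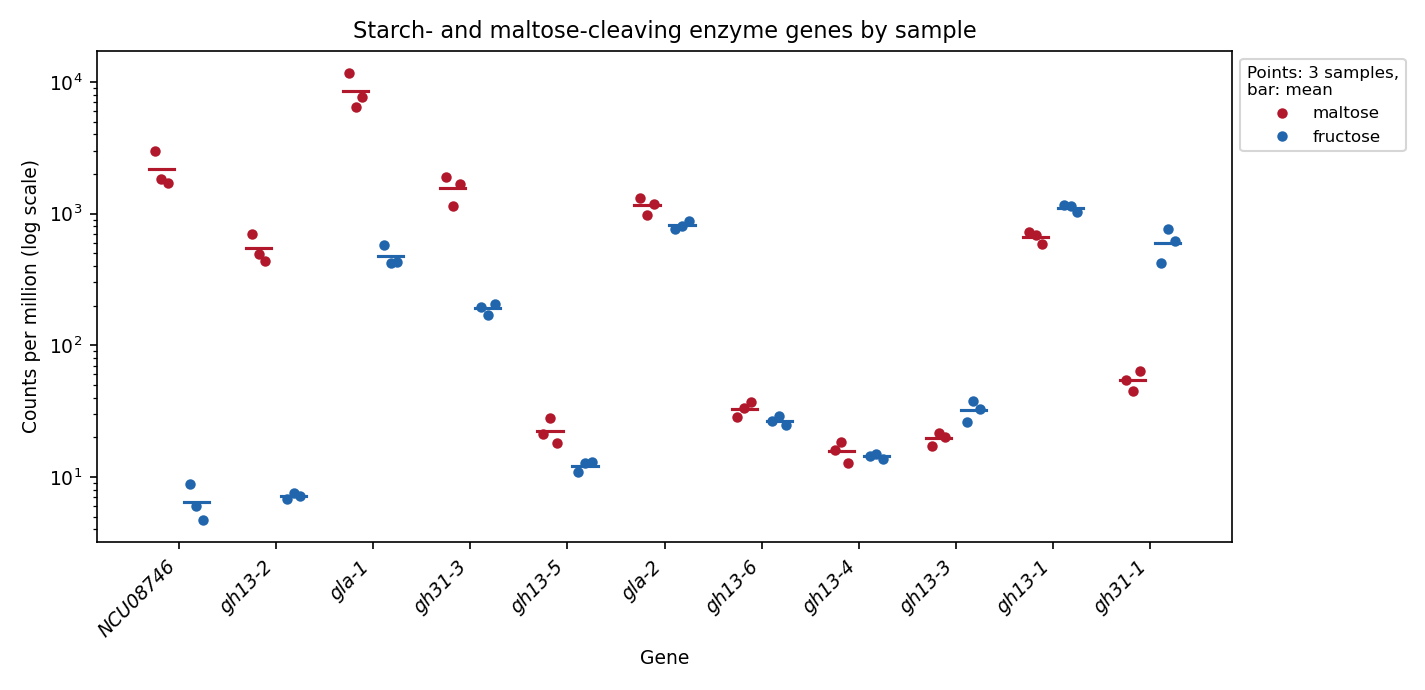
Expression level in CPM on a log axis for the 11 starch- and maltose-cleaving enzyme genes, ordered by fold change, with points for the 3 samples and bars for the mean, maltose in red and fructose in blue. The genes NCU08746, gh13-2, gla-1 and gh31-3 at the left lie far higher on maltose, and gh31-1 at the right has 44.6 to 63.4 CPM on maltose and 420.5 to 759.8 CPM on fructose.

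Genes annotated as alpha-glucoside or maltose permeases did not pass the test. The 4 members had log2 fold changes from -0.67 to 0.55. NCU06522, annotated as a maltose permease, had 55.2, 44.7 and 40.1 CPM on maltose and 38.4, 28.0 and 31.5 CPM on fructose (0.52, SE 0.19, adjusted p = 0.0258). NCU12154, also annotated as a maltose permease, had 1.85 to 2.05 CPM on maltose and 0.836 to 1.76 CPM on fructose, so that it was close to the detection limit in both groups. The whole list summed to 196.6 to 224 CPM on maltose and 265 to 281 CPM on fructose.

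Among the 16 hexose and monosaccharide transporter genes, 4 were called higher in maltose and 3 lower, with a median of -0.09. The high affinity glucose transporter gene hgt-1 (NCU10021) had 5396, 4529.7 and 4977 CPM on maltose, against 922, 631 and 724 CPM on fructose (2.71, SE 0.21, adjusted p = 1.76e-10). The transporter gene xyt-1 (NCU05627) is annotated as a high affinity glucose transporter, and the study cites xylose transport activity for it. This gene had 3652, 3093 and 4134 CPM on maltose, against 929.5, 293 and 444 CPM on fructose (2.71, SE 0.40, adjusted p = 3.51e-06). Its fructose samples differed by more than 3-fold among themselves, yet stayed below every maltose sample. The monosaccharide transporter gene NCU04537 averaged 105 ± 6.92 CPM on maltose and 16.2 ± 6.999 CPM on fructose (SD, n = 3 each), which gave 2.70 (SE 0.39).

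NCU04963, annotated as a high affinity glucose transporter, was higher by 1.01 (SE 0.29, adjusted p = 0.00445) at the edge of the 2-fold limit. Its call was lost without maltose replicate 1 (0.997), maltose replicate 3 (1.02, adjusted p = 0.0113), fructose replicate 2 (0.93) or fructose replicate 3 (1.01, adjusted p = 0.0154). The monosaccharide transporter gene NCU01132 had 10.1, 13.9 and 9.75 CPM on maltose, against 79.4, 74.9 and 85.2 CPM on fructose, and fell by 2.82 (SE 0.22, adjusted p = 1.37e-10). The hexose carrier gene NCU09358 fell by 1.60 (SE 0.15), with 23.7 to 31.2 CPM on maltose and 79.6 to 91.4 CPM on fructose. The sugar transporter gene NCU06384 fell by 2.12 (SE 0.57) at 0.272 to 0.470 CPM on maltose and 1.27 to 2.13 CPM on fructose, and its call was lost without maltose replicate 3 (-1.90) or fructose replicate 1 (-1.93). The other 9 genes, among them the glucose sensor gene sor-4 (-0.18), were not called, at -0.61 to 0.44.

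Genes for enzymes that cleave other disaccharides differed among themselves, with tre-1 and inv called higher in maltose and tre-2 not called. The trehalase gene tre-1 (NCU00943), whose enzyme splits trehalose into glucose, had 1238, 679 and 999 CPM on maltose, against 130.4, 121 and 117 CPM on fructose (2.99, SE 0.20, adjusted p = 1.05e-11). The invertase gene inv (NCU04265), for the sucrose-cleaving enzyme, had 885, 529 and 751 CPM on maltose, against 178, 67.9 and 88.9 CPM on fructose (2.69, SE 0.36, adjusted p = 8.13e-07). Neither pair of groups overlapped. The other trehalase gene tre-2, the trehalose phosphate synthase gene NCU00793, the glycogen synthase gene gsy-1 and the glycogenin gene gnn were not called, at -0.29 to 0.45. Of the 5 sucrose and polyol genes, inv and the mannitol phosphate dehydrogenase gene NCU07318 (1.31, SE 0.25) were called higher, and the xylulose kinase gene xyk-1 was called lower (-1.44, SE 0.17).

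The 12 carbon and nitrogen regulators held 5 genes called higher in maltose and 2 called lower. The COL-26 gene (col-26, NCU07788, chromosome V, 287232 to 291574) had 792, 481 and 654 CPM on maltose, against 125, 126 and 124 CPM on fructose. The log2 fold change was 2.36 (SE 0.13, adjusted p = 4.56e-13), and an exact permutation test on log2 CPM gave a difference of 2.33 with the two-sided minimum of p = 0.1. The 3 fructose samples had nearly the same level and every maltose sample lay above them.

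The change was larger in cre-1 (NCU08807, chromosome IV, 5176440 to 5178927), which had 1309.9, 751 and 1029 CPM on maltose, against 64.5, 33.7 and 42.9 CPM on fructose. Its log2 fold change was 4.45 (SE 0.23, adjusted p = 3.19e-13), and it was both the largest increase among 126 predicted transcription factor genes and 1 of the 10 largest of all genes above 10 CPM. In the mean over samples, col-26 and cre-1 were both highest on maltose of the 10 carbon sources and ranked 9 of 10 on fructose. Trehalose came next for both, with means of 504 CPM (col-26) and 961 CPM (cre-1), against 642 and 1030 CPM on maltose. The highest of the other 24 samples reached 565 CPM (col-26) and 1033 CPM (cre-1), above the lowest maltose sample of each.

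Called higher by 1.29 to 1.32 were vib-1, a regulator of protease secretion and heterokaryon incompatibility, the nitrogen catabolism activator gene nit-2 and the amino acid starvation regulator gene cpc-1. They averaged 415 ± 83.5 CPM (vib-1), 171 ± 30.8 CPM (nit-2) and 1993 ± 361 CPM (cpc-1) on maltose, against 168 ± 2.27 CPM (vib-1), 68.3 ± 12.3 CPM (nit-2) and 813 ± 10.5 CPM (cpc-1) on fructose (SD, n = 3 each). These 3 calls were lost under the stricter test against a 2-fold change, which took 105 calls among the 501 genes named or listed. The cellulase activator gene clr-2 had 11.8, 10.2 and 9.48 CPM on maltose, against 44.1, 45.9 and 50.1 CPM on fructose, and fell by 2.16 (SE 0.28, adjusted p = 4.02e-07). The nitrogen metabolite repression gene nmr fell by 1.20 (SE 0.18), a call lost without fructose replicate 2, where the value was -0.96. The activator genes xlr-1, clr-1 and nit-4, for xylan, cellulose and nitrate use, were not called, at -0.19 to 0.18, nor were tah-3 (0.13) and NCU01856 (0.50), annotated as the activator hac1 of the unfolded protein response.

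Over all 126 predicted transcription factor genes tested, 18 (14.3%) were called higher in maltose and 8 (6.35%) lower, with a median log2 fold change of 0.15. Over all genes tested these shares were 9.75% and 9.22%, and among the genes annotated in the study's tables, from which the list was drawn, they were 14.8% and 11.4%, so the share called higher was near that background. After cre-1 and col-26 the largest increase was in NCU00038, annotated as a C2H2 transcription factor, with 27.3, 22.0 and 19.2 CPM on maltose, against 5.89, 5.28 and 4.12 CPM on fructose (2.15, SE 0.18). The largest decrease was in NCU03643, annotated as a cutinase transcription factor, with 29.8, 28.4 and 26.9 CPM on maltose, against 236, 169 and 200.2 CPM on fructose (-2.83, SE 0.19, adjusted p = 1.93e-11). It was followed by clr-2 and by NCU09641 (-2.04, SE 0.20), which the study's tables list as a predicted transcription factor with no further annotation.

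In the listed genes for hexose phosphorylation and glycolysis, 6 of 15 were called higher in maltose and 1 lower, with a median of 0.76. NCU00575, annotated as glucokinase, had 3073, 1978 and 2733 CPM on maltose, against 744, 385 and 429 CPM on fructose (2.32, SE 0.22, adjusted p = 3.90e-09). A weakly expressed hexokinase gene, NCU04728, went the other way, with 34.1, 41.9 and 33.9 CPM on maltose, against 70.4, 81.5 and 72.6 CPM on fructose (-1.03, SE 0.12, adjusted p = 5.78e-08). The groups of neither gene overlapped. The call for NCU04728 rested on the 2-fold limit and was lost without maltose replicate 1 (-0.98), maltose replicate 3 (-0.98) or fructose replicate 2 (-0.96). The more highly expressed hexokinase gene emp-1 (NCU02542) averaged 800 CPM on maltose and 1066 CPM on fructose and was not called.

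Further down the pathway, the pyruvate kinase gene ace-8 (NCU06075) had 1667, 1260.1 and 1512 CPM on maltose, against 577, 225 and 329.6 CPM on fructose (1.97, SE 0.24, adjusted p = 2.48e-07). The glyceraldehyde phosphate dehydrogenase gene gpd-1 was higher by 1.54 (SE 0.27), the phosphofructokinase gene emp-3 by 1.45 (SE 0.18) and NCU01728, for an enzyme that makes an activator of phosphofructokinase, by 1.27 (SE 0.26). The phosphoglycerate mutase gene emp-6 was higher by 1.33 (SE 0.36), a call lost without fructose replicate 2 (1.08, adjusted p = 0.0246) or fructose replicate 3 (1.18, adjusted p = 0.0201). The glucose phosphate isomerase gene gpi-1 (-0.64), the aldolase gene fba (0.76), the phosphoglycerate kinase gene pgk (0.08) and the enolase gene emp-7 (0.71) were not called. Fructose replicate 1 was the highest fructose sample for most of these genes, and without it emp-7 (1.11) and the triosephosphate isomerase gene NCU07550 (1.13) also passed.

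Of the 14 genes for pyruvate dehydrogenase and the tricarboxylic acid (TCA) cycle, 5 were called higher in maltose and 0 lower, with a median of 0.96. The pyruvate dehydrogenase subunit gene ace-3 (NCU03004) had 207, 117 and 157 CPM on maltose, against 39.1, 21.4 and 23.6 CPM on fructose (2.51, SE 0.31, adjusted p = 2.64e-07). Of the other subunits, ace-2 was higher by 1.45 (SE 0.16) and NCU00050 by 1.02 (SE 0.15), and the call for NCU00050 was lost without maltose replicate 1 (0.98), maltose replicate 3 (0.94), fructose replicate 2 (0.93) or fructose replicate 3 (0.999). A further subunit gene, ace-4, stood just under the limit at 0.98 and passed when the replicate number entered as a block (1.01), without maltose replicate 2 (1.12) or without fructose replicate 1 (1.32). In the cycle itself, the isocitrate dehydrogenase subunit gene tca-4 was higher by 1.35 (SE 0.19). The succinyl-CoA ligase gene tca-9 was higher by 1.05 (SE 0.12), which fell under the limit without maltose replicate 1 (0.90) or fructose replicate 2 (0.97). The other isocitrate dehydrogenase subunit gene tca-6 was at 0.97 and passed without maltose replicate 2 (1.10), maltose replicate 3 (1.02) or fructose replicate 1 (1.17). The succinate dehydrogenase genes tca-10 and tca-13 were at -0.79 and -0.55, and were not called, nor were the citrate synthase gene cit-1 (0.95) and the malate dehydrogenase gene tca-16 (-0.60).

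The glyoxylate cycle and gluconeogenesis list had the lowest median of all gene lists examined, at -2.63. Of its 5 genes, 4 were called lower in maltose and none higher. The isocitrate lyase gene acu-3 (NCU04230, chromosome V, 5289251 to 5292173) had 50.7, 68.1 and 46.6 CPM on maltose, against 1554, 432 and 807 CPM on fructose (-4.08, SE 0.72, adjusted p = 3.58e-05). The malate synthase gene acu-9 had 87.5, 97.6 and 95.9 CPM on maltose, against 864, 328 and 545 CPM on fructose (-2.63, SE 0.35, adjusted p = 6.43e-07). In both genes the fructose samples varied by more than 2-fold and replicate 1 was the highest, while the maltose samples lay close together.

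The fructose bisphosphatase gene fbp-1 (NCU04797), for the enzyme that opposes phosphofructokinase, had 95.6, 104 and 93.7 CPM on maltose, against 1015, 586 and 769 CPM on fructose (-3.01, SE 0.29, adjusted p = 4.82e-09). The phosphoenolpyruvate carboxykinase gene acu-6 had 176, 249 and 229 CPM on maltose, against 1025, 709.5 and 955 CPM on fructose (-2.04, SE 0.33, adjusted p = 1.16e-05). Genes for opposite directions of the same pathway thus went opposite ways, emp-3 and ace-8 higher and fbp-1 and acu-6 lower in maltose. The acetyl-CoA synthetase gene acu-5 overlapped between the groups and was not called (-0.35, SE 0.40).

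For fermentation, the alcohol dehydrogenase gene adh-1 (NCU01754) had 1815, 1591 and 1448 CPM on maltose, against 9136, 5246 and 6108 CPM on fructose (-2.08, SE 0.50, adjusted p = 0.00105), a call lost with only replicates 2 and 3 of both groups (-1.93, adjusted p = 0.0269). It was 1 of the 5 largest losses in CPM. The pyruvate decarboxylase gene cfp had 1009, 540.1 and 1099.6 CPM on maltose, against 1255, 226 and 367 CPM on fructose. Fructose replicate 1 was the highest of all 6 samples, the log2 fold change was 0.52 (SE 0.48), and without that sample it was 1.55 and was called.

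**Figure D3:**
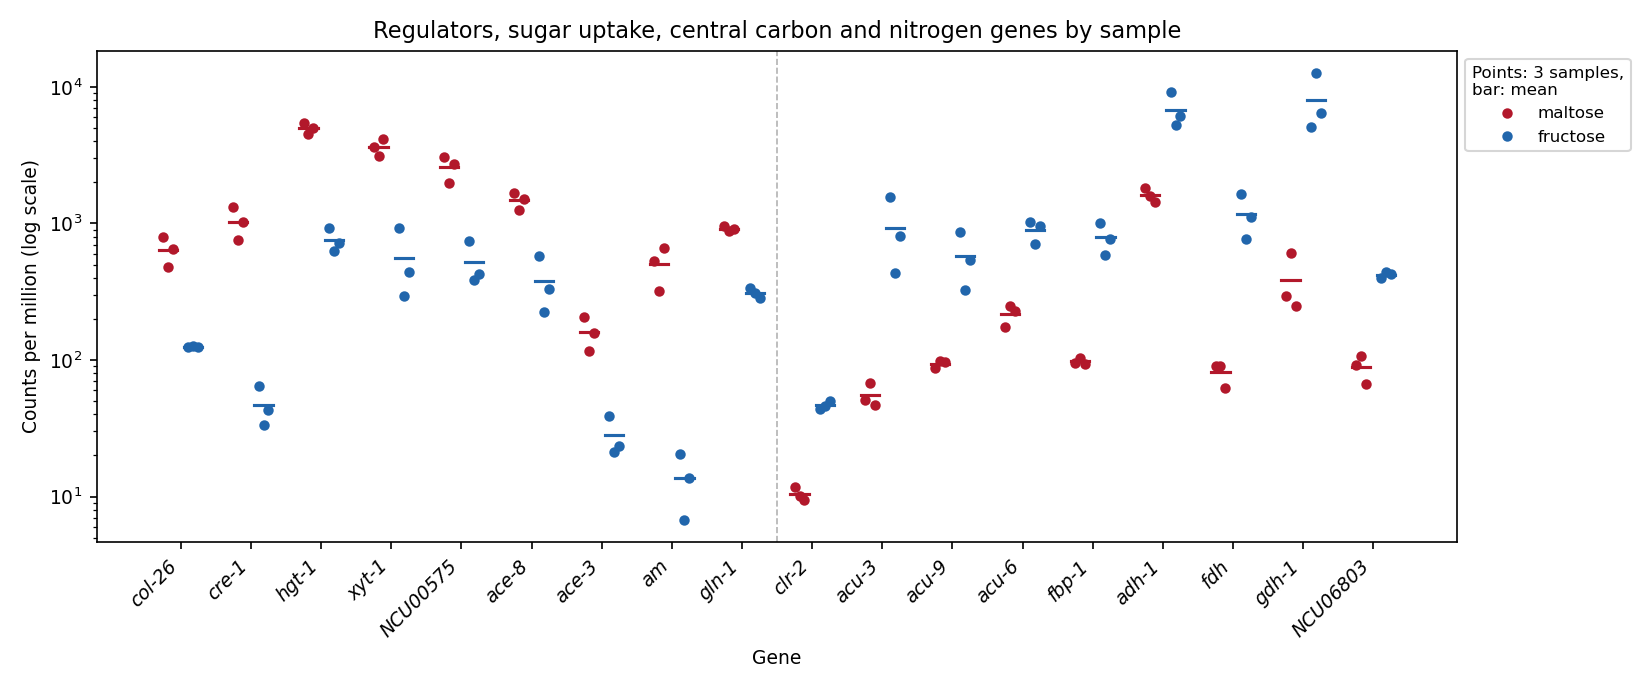
Expression level in CPM on a log axis for 18 named genes, 9 called higher in maltose at the left of the dashed line and 9 called lower at its right, with points for the 3 samples and bars for the mean, maltose in red and fructose in blue. In each gene the 3 maltose points lie entirely above or entirely below the 3 fructose points, as for gdh-1 with 248 to 610.2 CPM on maltose and 5077 to 12620.0 CPM on fructose.

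The ammonium-fixing genes am and gln-1 were called higher in maltose, and so was the glutamate synthase gene en(am)-2. The ammonium-fixing gene gln-2 was not called, and gdh-1, for ammonium release, was called lower. Of the 16 listed for nitrogen assimilation and the GABA shunt, 6 were called higher in maltose and 3 lower, with a median of 0.78. The NADP-dependent glutamate dehydrogenase gene am (NCU01195, chromosome V, 3200862 to 3203095), whose enzyme fixes ammonium into glutamate, had 532, 322 and 661 CPM on maltose, against 20.6, 6.75 and 13.7 CPM on fructose (5.20, SE 0.40, adjusted p = 1.11e-10). The NAD-dependent glutamate dehydrogenase gene gdh-1 (NCU00461, chromosome III, 3944102 to 3949450), whose enzyme releases ammonium from glutamate, had 293, 610.2 and 248 CPM on maltose, against 5077, 12620.0 and 6471 CPM on fructose (-4.39, SE 0.46, adjusted p = 1.93e-08). In the group means, am was 36.8-fold higher and gdh-1 was 21.0-fold lower in maltose.

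The glutamate synthase gene en(am)-2 had 442, 287 and 552 CPM on maltose, against 150.2, 77.3 and 119 CPM on fructose (1.89, SE 0.31, adjusted p = 1.54e-05). The glutamine synthetase gene gln-1 was higher by 1.56 (SE 0.15), at 875 to 951 CPM on maltose and 286 to 336 CPM on fructose, while the other glutamine synthetase gene gln-2 was at 0.62 (SE 0.19) and was not called. Among the permeases, the ammonium transporter gene NCU03257 had 134, 93.3 and 191 CPM on maltose, against 20.9, 13.2 and 17.5 CPM on fructose (3.02, SE 0.22, adjusted p = 3.72e-11). The basic amino acid permease gene pmb was higher by 2.67 (SE 0.22) and the uracil permease gene uc-5 by 1.99 (SE 0.23).

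Called lower were the nitrate transporter gene nit-10 (-1.25, SE 0.15) and NCU06803, annotated as glutamate decarboxylase, which begins the GABA shunt. NCU06803 had 92.7, 107 and 66.5 CPM on maltose, against 396, 440.4 and 428 CPM on fructose (-2.25, SE 0.24, adjusted p = 2.27e-08). Another gene with the same annotation, NCU06112, was at 0.96 and passed without maltose replicate 2 (1.15) or fructose replicate 1 (1.14). The nitrate reductase gene nit-3 (-0.27) and the nitrite reductase gene nit-6 (-0.64) were not called.

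Genes for making ribosomes were higher in maltose almost throughout the list. Of 54 genes annotated for ribosome biogenesis and rRNA processing, 49 (90.7%) were called higher in maltose and 0 lower, with a median log2 fold change of 2.66. The annotation came from the study's supplementary tables, which hold genes that the study picked for changes in other cultures and include its COL-26-dependent genes. Among all 4387 genes tested that carry an annotation there, 14.8% were called higher in maltose and 11.4% lower. The 54 genes summed to 1715 to 2024 CPM in the maltose samples and 397 to 447 CPM in the fructose samples.

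The box C/D snoRNP protein gene NCU03396 (nop-58 in the annotation), whose product guides rRNA methylation, had 148, 124 and 149 CPM on maltose, against 7.65, 8.61 and 5.73 CPM on fructose (4.25, SE 0.23, adjusted p = 4.56e-13). NCU03952, for the U3 snoRNP protein Mpp10 of early small-subunit assembly, had 50.5, 39.3 and 41.0 CPM on maltose, against 2.83, 3.13 and 2.57 CPM on fructose (3.93, SE 0.22). The fibrillarin gene NCU03702, for the methyltransferase of the same snoRNPs as NCU03396, had 177, 121 and 183 CPM on maltose, against 21.2, 16.9 and 13.9 CPM on fructose (3.21, SE 0.23). None of these groups overlapped. The lowest value was in NCU02428, annotated as nucleolar essential protein 1, at -0.91, and NCU01762, annotated as a nucleolar RNase III, was at -0.50. Neither was called.

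Ribosomal proteins themselves moved less. Of 72 cytoplasmic ribosomal protein genes, 71 had a log2 fold change above 0, with a median of 0.61, and 5 (6.94%) were called higher in maltose and 0 lower, a share of higher calls below the 9.75% of all genes tested. Together they took 6.05% to 7.40% of gene counts in the maltose samples and 4.05% to 4.39% in the fructose samples. Among the 5 were NCU07547, annotated as acidic ribosomal protein P0, at 4.13 (SE 0.32), and NCU01301 at 3.34 (SE 0.25). NCU01301 entered this list by the wording of its annotation, which names the ribosome assembly factor loc-1 and not a ribosomal protein. The other annotated P0 gene, po, was at 0.75 (SE 0.13) and was not called. NCU07547 had 19.8, 15.5 and 26.4 CPM on maltose, against 1.39, 1.27 and 0.776 CPM on fructose. The remaining 3 (NCU03302, NCU06892 and NCU08299) were at 1.01 to 1.22, and NCU08299 fell under the limit without maltose replicate 1 (0.81) or fructose replicate 2 (0.83). All 25 mitochondrial ribosomal protein genes were above 0, with a median of 0.57, and 3 (12%) were called higher, a share between the 9.75% of all genes and the 14.8% of annotated genes. With the replicate number entered as a block, NCU08120 of this list also passed (1.06). The chaperone gene grp78 of the endoplasmic reticulum had 1950.0, 1945.6 and 1614 CPM on maltose, against 889, 726 and 889 CPM on fructose (1.14, SE 0.20, adjusted p = 2.47e-05), while the disulfide isomerase gene erp38 of the same compartment was at 0.04 and was not called.

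**Figure D4:**
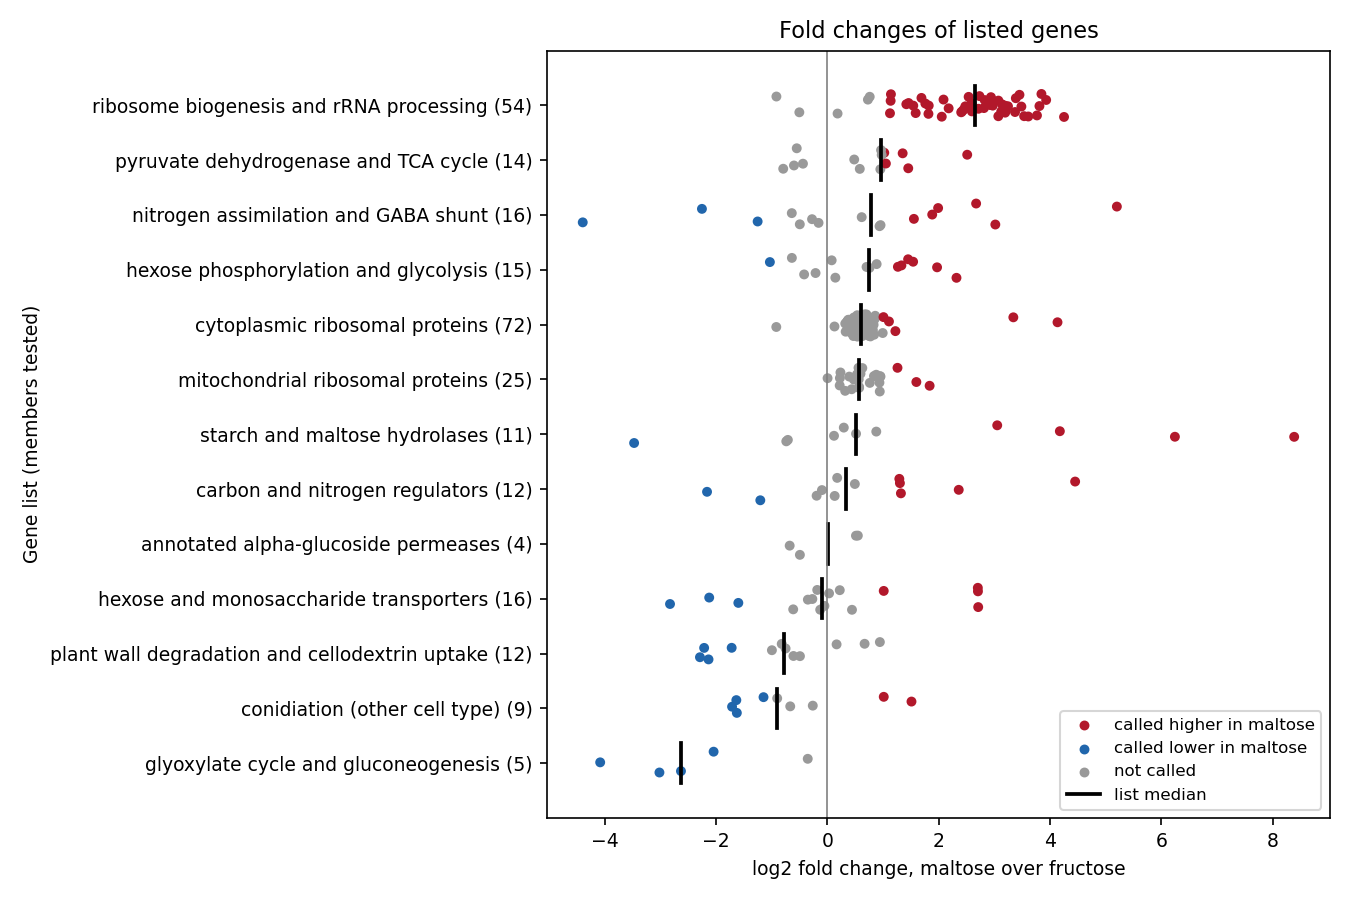
Log2 fold change, maltose over fructose, of each member of 13 gene lists, with the number of members tested in parentheses, red for called higher in maltose, blue for called lower, grey for not called, and a black bar at the list median. Ribosome biogenesis and rRNA processing has the highest median (2.66) and the glyoxylate cycle and gluconeogenesis the lowest (-2.63), while cytoplasmic ribosomal proteins cluster around 0.61.

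The study defined several gene sets on other cultures, grown on amylose, amylopectin or a higher concentration of maltose, and these are set beside the present contrast as a description. Of the COL-26-dependent set, defined on a col-26 deletion strain, 251 of 362 genes tested (69.3%) were called higher in maltose than in fructose and 6 (1.66%) lower, with a median log2 fold change of 1.66. The study reported that most of this set was also reduced in wild type cells without carbon, and that rRNA processing genes were overrepresented in it. This count is therefore not separate from that of the ribosome biogenesis list, and a part of COL-26 in it was not tested. The set with reduced expression in the presence of COL-26 had 9 of 421 (2.14%) called higher and 113 (26.8%) lower, with a median of -0.48. In the starch regulon, 74 of 322 genes (23.0%) were called higher and 14 (4.35%) lower, with a median of 0.41. The maltose-inducible set was defined at a higher maltose concentration against medium with no carbon, less the genes that sucrose changed alike. Its cultures also had a pregrowth on cellobiose, a carbon-free period and a longer exposure, so it rests on another contrast than maltose against fructose. In that set 73 of 733 (9.96%) were called higher and 55 (7.50%) lower, which is close to the 9.75% and 9.22% of all genes.

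Genes for plant cell wall degradation and cellodextrin uptake had 0 of 12 members called higher in maltose and 4 called lower, with a median of -0.78. The cellodextrin transporter gene cdt-2 had 23.8, 28.8 and 21.5 CPM on maltose, against 129.8, 97.3 and 98.0 CPM on fructose (-2.13, SE 0.24, adjusted p = 4.41e-08). The xylanase gene gh10-2 had 21.3, 12.4 and 21.0 CPM on maltose, against 91.1, 83.6 and 92.2 CPM on fructose (-2.29, SE 0.36, adjusted p = 7.14e-06). The cellobionic acid transporter gene NCU05853 fell by 1.72 (SE 0.24). The xylanase gene gh11-2 fell by 2.21 (SE 0.57), with 74.7 CPM in fructose replicate 2 against 19.0 and 33.7 CPM in the other fructose samples. Its call was lost without fructose replicate 2 (-1.52, adjusted p = 0.0285) or maltose replicate 3 (-2.16, adjusted p = 0.01001). The cellodextrin transporter gene cdt-1 stood at -0.99, just inside the limit, and passed without maltose replicate 2 (-1.06), fructose replicate 1 (-1.06) or fructose replicate 3 (-1.03). The cellulase genes cbh-1, gh6-2 and gh5-1 were not called, at -0.75 to 0.17, and the beta-glucosidase gene gh1-1 was at 0.95 and passed without maltose replicate 3 (1.10).

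Mycelia can hold cells on the way to conidia, and the markers of conidiation changed in both directions. The 9 conidiation genes summed to 16412.5 to 29982 CPM in the maltose samples and 22055 to 29780 CPM in the fructose samples, and none was at 0. Among these genes, 2 were called higher in maltose and 4 lower. The hydrophobin gene eas had 9034, 20072 and 9906 CPM on maltose and 7914, 6344 and 5049.7 CPM on fructose. Its log2 fold change of 1.01 rested on maltose replicate 2, without which it was 0.56, and the call was also lost without fructose replicate 2 (1.004, adjusted p = 0.0181), without fructose replicate 3 (0.87) and when the replicate number entered as a block (0.99). The conidiation gene con-6 was higher by 1.51 (SE 0.44), a call lost without maltose replicate 2 (1.14), fructose replicate 1 (1.23) or fructose replicate 3 (1.44). With only the maltose and fructose samples fitted, the calls for eas (adjusted p = 0.0378) and con-6 (adjusted p = 0.0101) were also lost.

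Lower in maltose were the clock-controlled gene ccg-1, with 5037, 6234 and 4737 CPM on maltose, against 12531, 20787 and 19025 CPM on fructose (-1.71, SE 0.27), and con-10, con-13 and csp-1 (-1.63 to -1.14). The conidiation regulator gene fl was at -0.90 and passed without maltose replicate 2 (-1.02). Of the 4 pheromone and mating genes, which summed to 53.1 to 118 CPM on maltose and 38.1 to 42.4 CPM on fructose, the pheromone precursor gene ccg-4 was called higher (3.16, SE 0.45) and the other pheromone precursor gene mfa-1 lower (-1.74, SE 0.16). The 3 genes for vegetative hyphae (actin, alpha-tubulin and the Woronin body gene hex-1) were not called, at 0.18 to 0.69, and summed to 3726 to 3818 CPM on maltose and 2898 to 3414 CPM on fructose. The part of these cell states in the other differences was not tested.

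Beyond the lists, the 10 largest increases among called genes above 10 CPM without overlap included pho-5, for a high affinity phosphate transporter, with 113, 76.8 and 182 CPM on maltose, against 3.89, 3.91 and 3.64 CPM on fructose (5.02, SE 0.81, adjusted p = 1.05e-05). NCU03117, annotated as an inosine monophosphate dehydrogenase of guanine nucleotide synthesis, had 258, 217 and 279 CPM on maltose, against 12.1, 12.9 and 12.8 CPM on fructose (4.32, SE 0.19, adjusted p = 2.20e-14). The remaining increases by this rule were NCU02155 (4.95, hypothetical protein), NCU03561 (4.49, a mitochondrial carrier) and NCU00919 (4.46, an RNA helicase). By gain in CPM, app, a gene known for an abundant protein of fruiting bodies, came with gla-1, eas, hgt-1 and gpd-1, at 4882, 6882 and 8772 CPM on maltose, against 2323, 1427 and 1444 CPM on fructose (1.98, SE 0.30).

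The largest decrease was in NCU07232, annotated as a small heat shock protein of the Hsp30 kind, with 2.19, 3.76 and 1.69 CPM on maltose, against 84.6, 107 and 47.7 CPM on fructose (-4.96, SE 0.79, adjusted p = 9.01e-06). Several of the others encode oxidoreductases. The short chain dehydrogenase gene NCU01861 had 26.8, 24.8 and 20.0 CPM on maltose, against 425, 742 and 479 CPM on fructose (-4.52, SE 0.52). NCU04078, annotated as a methanol dehydrogenase, fell by 4.36 (SE 0.39), and the formate dehydrogenase gene fdh had 90.4, 90.5 and 62.6 CPM on maltose, against 1630.2, 772 and 1109.9 CPM on fructose (-3.85, SE 0.35, adjusted p = 2.16e-09). NCU00985, annotated as a hydrolase, fell by 4.37 (SE 0.43), and 3 genes with no annotation used here, NCU08561, NCU03416 and NCU09958, fell by 3.75 to 4.21. The aldehyde dehydrogenase gene NCU03415, with 850.2, 914 and 694 CPM on maltose, against 10422, 5934 and 8025 CPM on fructose (-3.31, SE 0.49), and NCU04314 (-1.94, SE 0.22) were among the 5 largest losses in CPM, together with ccg-1, gdh-1 and adh-1.

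Called genes also lay side by side in the genome. There were 14 runs of at least 4 neighbouring annotated genes all called in the same direction, 4 runs with 22 genes higher in maltose and 10 runs with 43 genes lower. The longest run had 10 genes, NCU05761 to NCU05766 on chromosome VII (3734171 to 3752208), all higher in maltose by 1.96 to 3.34 with a median of 2.54. NCU05763 had 105, 92.9 and 59.8 CPM on maltose, against 8.30, 10.9 and 6.09 CPM on fructose (3.34, SE 0.44, adjusted p = 5.61e-07). At the end of the run, NCU05766 had 348, 292 and 214 CPM on maltose, against 78.1, 70.3 and 60.3 CPM on fructose (2.03, SE 0.31). In none of the 10 genes did the groups overlap, and all 10 had their highest mean on maltose among the 10 carbon sources. Whether reads were counted by strand is not given in the sources used here, so overlapping neighbours may share reads.

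**Figure D5:**
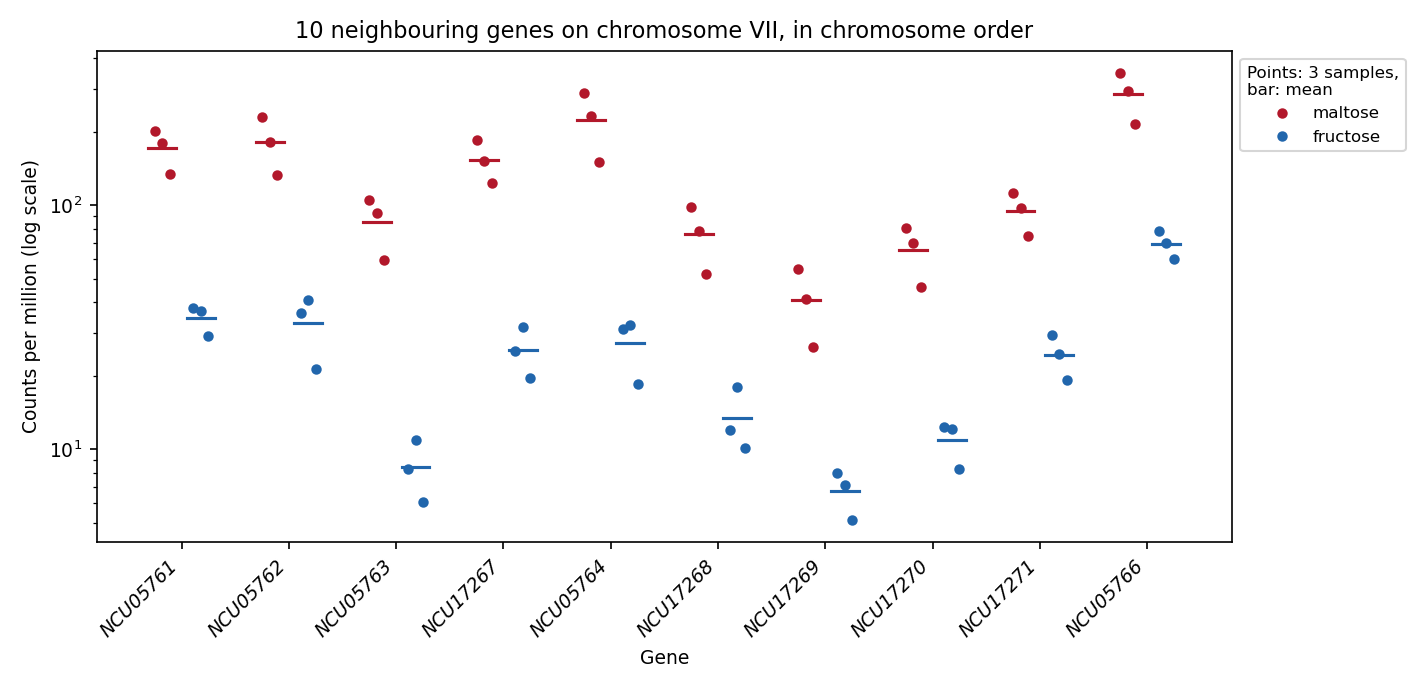
Expression level in CPM on a log axis for the 10 neighbouring genes of the chromosome VII run, in their order along the chromosome, with points for the 3 samples and bars for the mean, maltose in red and fructose in blue. Every maltose point of each gene lies above every fructose point, from 26.3 to 54.8 CPM on maltose and 5.13 to 7.97 CPM on fructose in NCU17269 to 214 to 348 CPM on maltose and 60.3 to 78.1 CPM on fructose in NCU05766.

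Among the runs lower in maltose, NCU02127 to NCU02124 on chromosome I (1156535 to 1167190) included 2 genes of leucine breakdown. The methylcrotonoyl-CoA carboxylase subunit gene NCU02127 had 12.2, 28.4 and 16.6 CPM on maltose, against 130.2, 105 and 109.5 CPM on fructose (-2.59, SE 0.48), and the isovaleryl-CoA dehydrogenase gene NCU02126 was lower by 1.79 (SE 0.36), a call lost with only replicates 2 and 3 of both groups (-1.44, adjusted p = 0.0167). A run on chromosome VI (873510 to 882303) held csy, annotated as a chalcone synthase, the peroxisome division gene pex11, npd-2 and NCU04804, at -1.94 to -1.64. The run NCU05849 to NCU05853 on chromosome VII (4046603 to 4058155) held the cellobionic acid transporter gene beside a glucuronan lyase gene (NCU05852) and 3 others, at -1.97 to -1.07, and the call for NCU05852 was lost without maltose replicate 3 (-0.98). NCU04804 had under 1 CPM in all 6 samples, and its call was lost on leaving out any sample except fructose replicate 2, with values of -1.89 to -1.58.

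Levels on the other 8 carbon sources were used to place the called genes. These genes were picked for a difference between maltose and fructose. Values on opposite sides of the other 8 are therefore in large part fixed by that choice. So are counts of called genes highest or lowest on maltose or fructose that exceed those of all genes. For the 829 genes called higher in maltose, the median log2 fold change against the mean of the other 8 was 0.85 for maltose and -0.75 for fructose. For the 784 genes called lower, the medians were -0.75 for maltose and 0.76 for fructose, and both sugars were set against the same 24 samples. Among the 829 genes, 160 had their highest mean on maltose and 529 on trehalose, another disaccharide of glucose, while 152 had their lowest mean on fructose and 379 on mannose, another hexose. Among the 784 genes, 227 were highest on fructose and 236 on mannose, and 174 were lowest on maltose and 370 on trehalose. Over all 8501 genes tested, 477 were highest on maltose and 1586 on trehalose, and 535 were lowest on fructose and 1082 on mannose. In the other direction, 556 of all genes were highest on fructose and 1216 on mannose, and 526 were lowest on maltose and 1370 on trehalose.

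Individual genes differed in this respect. The hydrolase genes NCU08746 and gh13-2 stood 5.65 and 5.18 above the mean of the other 8 on maltose and -2.74 and -1.07 from it on fructose. For am the values were 1.05 on maltose and -4.15 on fructose, and for gdh-1 -1.60 on maltose and 2.79 on fructose. The heat shock gene NCU07232 was at -4.91 on maltose and 0.06 on fructose. For the ribosome biogenesis list the medians were 1.47 on maltose and -1.24 on fructose.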

How the data were processed

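The authors prepared libraries from 1 µg of total RNA, sequenced them on a HiSeq2000 and processed the reads with CASAVA 1.8, TopHat2 2.0.4, HTSeq 0.6.0 and DESeq2 1.10.1. The deposited values are raw counts of reads per gene, with 9758 genes in each table. The 5 rows that name no gene were set aside. Symbols and NC12 coordinates came from RefSeq, where 9757 genes matched, and product annotations came from the study's supplementary tables.

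Counts of all 30 samples were fitted together with edgeR 4.0.16 in R 4.3.3 (TMM scaling, filterByExpr, quasi-likelihood test, prior count 0.125), with Benjamini-Hochberg adjustment over 8501 genes. CPM are TMM-normalised. Exact permutation tests used SciPy 1.17.1 with Python 3.11.15, and DESeq2 1.42.0 was an alternative. On counts simulated for this comparison over 8501 genes, 185 of 200 genes changed 3-fold were recovered and 1 other gene was called. The simulated level of each gene was its mean over all 30 samples, and only these 200 genes differed, in the maltose samples. No deviation shared by replicate number was simulated, so the count of other genes called does not carry over to the real samples.

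Replicate numbers come from the labels. Samples of maltose and fructose with the same number deviated together from their group means, with correlations of 0.266, 0.232 and 0.171 across genes, and a fit with the number as a block was run as an alternative. No 2 replicates matched within sampling noise. Over all genes, the chi-square per degree of freedom was 115 between fructose replicates 1 and 2, 57.3 between 1 and 3, and 31.0 between 2 and 3. Between maltose replicates it was 49.7 to 60.8. Total counts on genes were 13878553 to 21925749 per sample.

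Genes named are the members of the gene lists, the 10 largest increases and 10 largest decreases among called genes of at least 10 mean CPM in the higher group without overlap, the 5 largest gains and 5 largest losses in CPM, runs of at least 4 neighbouring called genes, and the 3 largest increases and 3 largest decreases among predicted transcription factors. The comparison and the lists were chosen with earlier results of these data known. Of the IDs first listed, 10 with no annotation and 1 that carries another symbol were left out.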

Additional observations from a re-analysis of the deposited data

Results flagged for a closer look

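Reads that mapped to several places were set aside by the authors' counting and enter none of the comparisons. Their share averaged 2.22% in the maltose samples (1.51% to 3.23%) and 1.08% in the fructose samples (1.04% to 1.12%), so the groups did not overlap, and it ranged from 0.217% to 6.05% over the 24 samples on the other 8 carbon sources. Genes with near-identical copies lose such reads, and the genes behind them were not identified here.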

How the results depend on the processing

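The number of genes called ranged from 1509 to 1692 when each replicate was left out in turn, with 801 to 886 higher and 708 to 806 lower. It was 1609 to 1642 with another scaling, no filter, the DESeq2 test, a block for the replicate number (1621 genes, 837 higher and 784 lower) or a covariate for reads outside genes, and 1542 with only these 6 samples fitted. The test against a fold change of 2 called 693 genes (414 higher, 279 lower), and 82 in place of 119 of the 286 list members tested, because it asks for more than the 2-fold limit on the estimate. Under it, 105 genes named or listed lost their call. Besides vib-1, nit-2 and cpc-1, these included nmr, gpd-1, emp-3, emp-6, NCU01728, NCU04728, tca-4, tca-9, NCU00050 and adh-1. Also lost were en(am)-2, ccg-1, con-10, con-13, nit-10, grp78, gh11-2, xyk-1 and NCU07318. Of 501 genes named or listed, 368 kept their call and direction under all 15 alternatives and 433 under all but that test, and 0 reversed. The block cost eas and NCU11364 their calls, gave calls to ace-4 (1.01), NCU08120 (1.06), ad-8 (1.02) and NCU08046 (1.003), and changed no other call among them. The difference in hydrolase share was 0.971 to 1.35 percentage points and that in col-26 2.17 to 2.53 on the log2 scale with a replicate left out, where the smallest exact p is 0.2. With only replicates 2 and 3, an alternative chosen after seeing the data because fructose replicate 1 stood apart in several glycolytic genes, 1555 genes were called (817 higher, 738 lower). Of the named or listed genes, 16 lost their call there and 9 gained one, and those described in the report that lost it were adh-1 (-1.93), NCU02126 (-1.44), NCU04804 (-1.93), NCU04963 (1.06), NCU06384 (-1.996), NCU08299 (0.99), tca-9 (0.95) and con-6 (1.42). Depth limits genes such as NCU06384 and NCU04804, with few reads per sample.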

Other observations

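The gene groups here were put together from the annotation after the values were seen, so their counts are a description, to be read against the 14.8% called higher and 11.4% called lower among all annotated genes tested. Subunits of RNA polymerases followed the ribosome assembly genes, with 10 of 11 called higher in maltose, 0 lower and a median log2 fold change of 2.09. The largest was NCU01638, for the large subunit of RNA polymerase I, which makes rRNA, with 66.3, 53.2 and 89.3 CPM on maltose, against 6.44, 5.77 and 4.72 CPM on fructose (3.62, SE 0.22). Of 28 translation factor genes, 11 (39.3%) were called higher and 1 lower, and of 15 purine and nucleotide synthesis genes, 9 (60%) were called higher and 1 lower. Of the translation factors, NCU09903, annotated as elongation factor 3, had 58.1, 58.2 and 56.5 CPM on maltose, against 3.57, 3.67 and 3.64 CPM on fructose (3.99, SE 0.21). Under a block for the replicate number, NCU08046 (1.003) of the translation factors and ad-8 (1.02) of the nucleotide synthesis genes also passed. Of 17 aminoacyl-tRNA synthetase genes, 4 (23.5%) were called higher and 2 (11.8%) lower, not far from those shares. Among 9 heat shock protein genes, the chaperone genes hsp70-2 (3.32, SE 0.18), hsp60 (2.49, SE 0.30) and hsp70-5 (1.74, SE 0.15) were called higher, and only the Hsp30-like NCU07232 was called lower.

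Lipid and amino acid breakdown went the other way. Of 40 genes for fatty acid oxidation and peroxisomes, 20 (50%) were called lower in maltose and 0 higher, with a median of -1.04. The carnitine acetyltransferase gene NCU01611, which carries acetyl groups between compartments, had 73.8, 80.3 and 74.8 CPM on maltose, against 1243, 464 and 777 CPM on fructose (-3.44, SE 0.54). Fructose replicate 1 was again the highest sample. Of 7 genes for the breakdown of branched-chain amino acids and propionate, 6 were called lower, including the methylisocitrate lyase gene NCU02481, with 29.3, 33.3 and 33.5 CPM on maltose, against 457, 200.0 and 295 CPM on fructose (-3.31, SE 0.45). Of 14 aldehyde and alcohol dehydrogenase genes beyond adh-1, 7 (50%) were called lower and 0 higher.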
